A study of Mus musculus with 8 samples.

Results

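Replication-dependent and linker histone genes were described in the left ventricle of mice before, during and after pregnancy. Members were the annotated genes whose symbol begins with H1f, H2ac, H2bc, H3c or H4c and a digit, which older annotations call Hist1h to Hist4h, and the choice used no measured value. There were 29 such genes among 22180 named genes on the arrays: 8 linker histones (H1), 6 of H2A, 8 of H2B and 7 of H4. H3 had 0 genes with a probe set of its own and was read from probe sets annotated to several genes. Of the 29, 21 lay on chromosome 13, 5 on chromosome 3, 2 on chromosome 6 and 1 on chromosome 15, in the RefSeq gene table used for names.

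Expression in left ventricle tissue was measured on 8 one-colour Affymetrix arrays, 2 for each of 4 states. The reference group was non-pregnant females in diestrus, and the other groups were females at day 12 of pregnancy, at day 19 of pregnancy and at day 1.5 post-partum. All groups were C57BL/6 mice of 3 to 4 months with no gene alteration or drug named. The late group is labelled day 19 in the titles and day 18 or 19 in the protocol, the ventricle was cut into 3 pieces of which 1 was used, and 100 ng of total RNA went onto each array. The labels name separate samples but not animals, so p-values measure only the spread between these samples, and they do not say whether the post-partum females nursed.

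Each nucleosome wraps DNA around an octamer of the core histones H2A, H2B, H3 and H4, and a linker histone of the H1 family binds where the DNA enters and leaves. Replication-dependent histone genes lie in clusters as many near-identical copies, are transcribed mainly in S phase, and give mRNAs that end in a stem-loop in place of a poly(A) tail. Adult cardiomyocytes rarely divide, while endothelial cells, fibroblasts and immune cells of the heart can. Several linker histones are replication-independent or are made in the germ line, so that the family mixes genes of cycling cells with genes of resting cells.

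Promoter windows are shown for H1f5, H2bc18, H2bc3 and H4c12, and for H2ac10, the brightest member of H2A. The first 4 were chosen from their values. They were the tested members with both day 12 arrays below and both post-partum arrays above both diestrus arrays, beside 2.08% of all tested genes. RefSeq windows of GRCm38.p6, from 250 bases before to 50 after the start, matched 27 of the 29 genes. The CCAAT box (CCAAT), the TATA box (TATAAA), the octamer of H2B genes (ATTTGCAT) and an element of H1 genes (AAACACAAA) were searched on both strands. Capitals mark the matches, and a CCAAT box on the other strand reads ATTGG here. The H1f5 window is chr13:21780576-21780875 on the minus strand, that of H2bc18 is chr3:96269450-96269749 on the plus strand, and that of H2bc3 is chr13:23746484-23746783 on the plus strand. The H2ac10 window is chr13:23533625-23533924 on the plus strand, and that of H4c12 is chr13:21750504-21750803 on the minus strand. Each is written 5′ to 3′ in the direction of its gene.
H1f5: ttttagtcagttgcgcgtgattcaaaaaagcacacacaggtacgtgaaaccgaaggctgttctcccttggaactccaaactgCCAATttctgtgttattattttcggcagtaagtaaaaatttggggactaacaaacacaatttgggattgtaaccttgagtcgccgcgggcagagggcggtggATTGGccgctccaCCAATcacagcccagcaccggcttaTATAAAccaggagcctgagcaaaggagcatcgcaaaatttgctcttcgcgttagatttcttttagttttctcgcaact
H2bc18: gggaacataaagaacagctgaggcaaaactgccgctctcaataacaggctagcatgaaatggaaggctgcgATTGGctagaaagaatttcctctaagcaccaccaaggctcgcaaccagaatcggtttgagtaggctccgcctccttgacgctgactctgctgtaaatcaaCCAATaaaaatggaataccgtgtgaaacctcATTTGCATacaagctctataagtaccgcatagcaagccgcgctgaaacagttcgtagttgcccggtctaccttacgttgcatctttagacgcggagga
H2bc3: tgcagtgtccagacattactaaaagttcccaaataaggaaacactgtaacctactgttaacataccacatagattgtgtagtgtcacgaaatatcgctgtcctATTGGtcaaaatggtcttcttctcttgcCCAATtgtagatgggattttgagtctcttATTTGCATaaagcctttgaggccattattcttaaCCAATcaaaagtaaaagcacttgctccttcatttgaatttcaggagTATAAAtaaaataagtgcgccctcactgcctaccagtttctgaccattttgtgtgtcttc
H2ac10: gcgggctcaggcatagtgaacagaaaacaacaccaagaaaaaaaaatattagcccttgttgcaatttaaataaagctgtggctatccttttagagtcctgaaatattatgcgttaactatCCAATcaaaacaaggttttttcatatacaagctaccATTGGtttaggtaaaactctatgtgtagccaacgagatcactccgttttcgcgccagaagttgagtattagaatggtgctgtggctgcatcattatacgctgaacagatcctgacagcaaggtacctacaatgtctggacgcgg
H4c12: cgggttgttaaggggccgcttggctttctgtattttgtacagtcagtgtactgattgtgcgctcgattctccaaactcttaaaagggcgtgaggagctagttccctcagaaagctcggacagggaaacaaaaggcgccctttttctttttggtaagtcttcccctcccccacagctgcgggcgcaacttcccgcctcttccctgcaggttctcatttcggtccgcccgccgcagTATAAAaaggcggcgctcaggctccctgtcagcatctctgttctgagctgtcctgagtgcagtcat

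Matches differed by class. CCAAT was present in 20 of the 27 windows, beside 37.4% of all 32851 windows of the same length. It was found in 7 of 7 windows of H2B, in 6 of 6 of H2A, in 6 of 8 of H1 and in 1 of 6 of H4. The octamer ATTTGCAT, known as an element of H2B promoters, was present in 5 of 7 windows of H2B and 3 of 6 of H2A, beside 1.74% of all windows. TATAAA was present in 16 of the 27 windows, beside 13.6% of all, and AAACACAAA in 2 of the 27, beside 0.767%. In H1f5 the CCAAT matches began 168, 66 and 53 bases before the start and TATAAA began 28 bases before it. The H2bc18 window held CCAAT at 179 and 79 bases and the octamer at 48 bases before the start. The H2bc3 window held CCAAT at 147, 119 and 56 bases, the octamer at 90 bases and TATAAA at 10 bases before it. In H4c12 TATAAA stood 16 bases before the start, and in H2ac10 CCAAT stood 130 and 94 bases before it. Windows of 6 members overlapped the window of an H2A or H2B gene on the opposite strand by 220 to 277 bases, so that they share matches. A match is a run of letters in a window and was not read as a bound site.

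Values are log2 RMA intensities per probe set, in which a step of 1 is a doubling. They were compared between arrays for the same gene and never between genes, since probe sets differ in brightness. Genes entered the test where any group's mean was at or above 5.19, the median of the whole table. That kept 13872 genes, 11 of them histone genes: 3 of H1, 3 of H2A, 3 of H2B and 2 of H4. The other 18 members were dimmer and are given by their values. Of the 11, 8 reached that level in all 4 groups. H1f5 reached it only in the post-partum group, and H2bc18 and H4c14 missed it in some groups, so these 3 were kept partly because of the groups in which they were high. Copies of 1 class are near-identical in their coding sequence, and whether a probe set annotated to 1 gene also bound its copies was not tested.

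One array stood apart. Day 19 replicate 2 correlated with the other arrays at 0.969 to 0.977 over all probe sets, beside 0.980 to 0.992 among the other 7. Against the diestrus mean, the 12 macrophage markers averaged 1.30 higher (log2) on it and 0.13 higher on day 19 replicate 1. The 6 tested lymphocyte markers averaged 1.29 higher on it and -0.24 on replicate 1. Day 19 replicate 1 in turn had the atrial markers 2.17 higher on average, beside -0.49 on replicate 2. Atrial markers also differed within 2 other states. They averaged 0.41 on diestrus replicate 3 beside -0.41 on replicate 2, and 0.78 on day 12 replicate 3 beside -0.56 on replicate 2. The part of these markers in the histone values was not tested. Differences of single genes from or to day 19, and counts and medians over the histone genes with day 19, are also given without day 19 replicate 2. All 10 cardiomyocyte markers listed as a tissue check were above the filter. In bulk tissue, fewer cells of a type and less RNA per cell cannot be told apart.

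The comparisons asked which histone genes differed from diestrus in mid pregnancy, late pregnancy and just after birth. Limma called 0 of the 11 tested histone genes at a Benjamini-Hochberg adjusted p under 0.05 at day 12, day 19 or post-partum, or in the F test over the 3 states, beside 0.0% of the 13872 genes in each. Comparisons of day 19 with day 12, post-partum with day 19 and post-partum with day 12 gave the same: 0 of 11, beside 0.0% of genes. At an unadjusted p under 0.05 the counts were 0 of 11 at day 12 (2.31% of all genes), 0 at day 19 (7.29%) and 3 post-partum (6.62%). They were 2 for day 19 against day 12 (6.47%), 2 for post-partum against day 19 (8.25%), 4 for post-partum against day 12 (8.12%) and 3 in the F test (5.81%). Without day 19 replicate 2 the counts were 0 for day 19 against diestrus (4.15%), 0 for day 19 against day 12 (3.31%), 3 for post-partum against day 19 (7.46%) and 4 in the F test (8.21%). Because 3 of the 11 passed the filter through some groups only, these counts describe the tested genes and are no measure of all members.

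The widest differences among the members were post-partum, in the linker histone H1f5 and the H2B gene H2bc18. Post-partum against diestrus, H1f5 was higher by 1.80 ± 0.35 (log2 difference ± moderated standard error, 2 arrays per group), or 3.49-fold. H2bc18 was higher by 0.90 ± 0.30, or 1.87-fold, and H2bc3 by 0.44 ± 0.16, or 1.36-fold. None of the 3 passed the adjusted test. H1f5 reached the filter only in the post-partum group and H2bc18 missed it in some groups, so both were kept partly through their high post-partum values. Of the 8 members at the filter in all 4 groups, 1 had an unadjusted limma p under 0.05 post-partum against diestrus, beside 6.62% of all tested genes. At day 12 both arrays of all 3 genes lay below both diestrus arrays, by 0.61, 0.34 and 0.24 on average in size. Of all tested genes, 15.6% lay below in this way. The 3 genes were named here by their post-partum difference, which uses the same diestrus arrays. Without day 12 replicate 3 the H1f5 difference was -0.10.

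**Figure D1:**
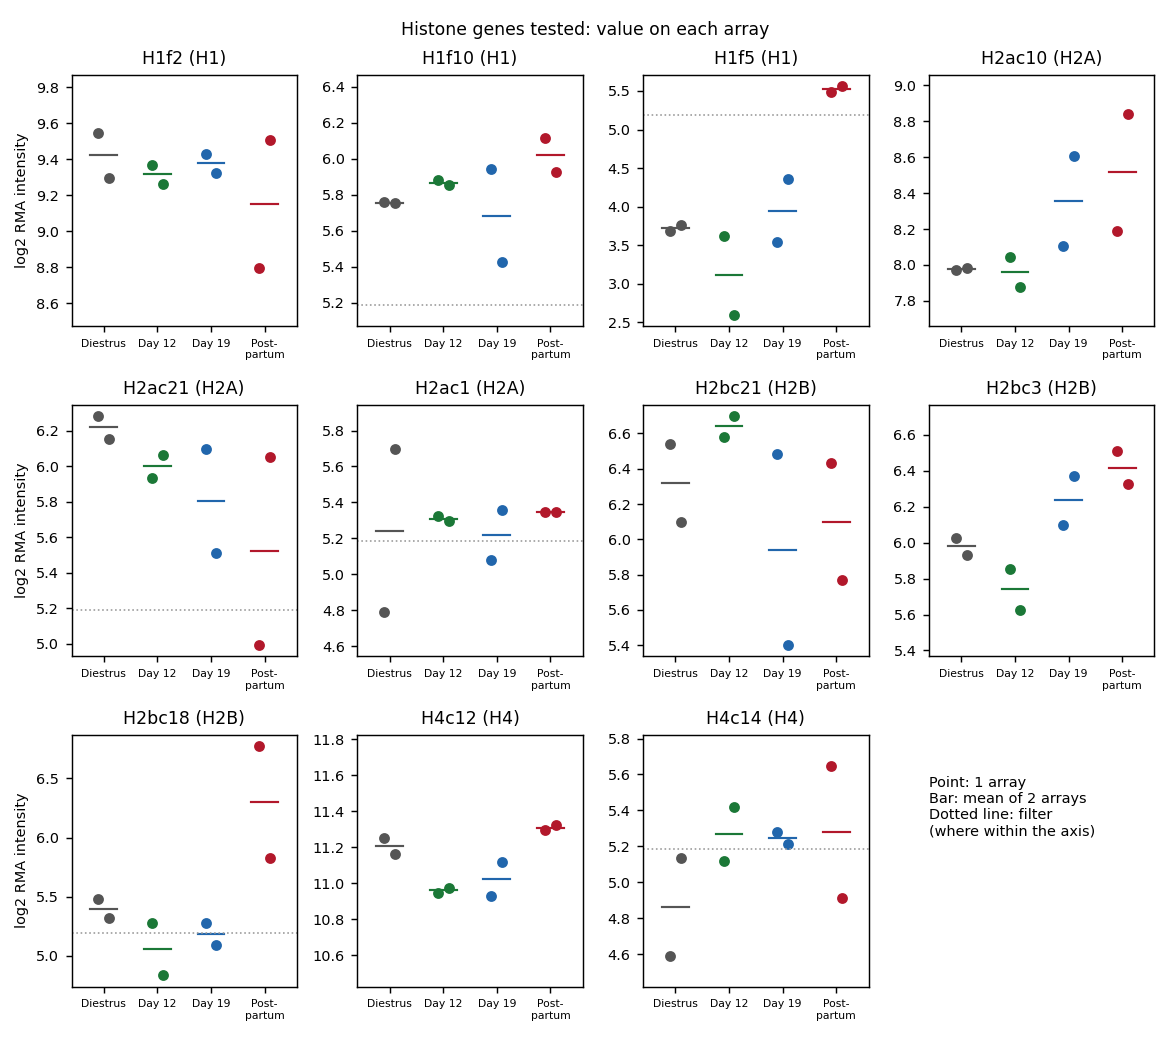
Log2 RMA intensity of the 11 tested histone genes on each of the 8 arrays, 1 panel per gene with its own vertical axis; points are arrays, short bars are means of 2 arrays, and the dotted line is the filter of 5.19 where the axis reaches it. H1f5 stood at 5.49 and 5.56 post-partum and at or below 4.35 on every other array.

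Among the linker histones, H1f5 (H1.5, a replication-dependent subtype) had values of 3.69 and 3.76 in diestrus, 3.62 and 2.60 at day 12, 3.54 and 4.35 at day 19 and 5.49 and 5.56 post-partum. Both post-partum arrays were above all 6 others, both day 12 arrays were below both diestrus arrays, and the 2 day 19 arrays straddled them. The post-partum difference from diestrus stayed between 1.77 and 1.84 when each array was left out in turn, with an unadjusted p of 0.00105 and an adjusted p of 0.722 in limma (Benjamini-Hochberg) with all arrays. Against day 12 the post-partum value was higher by 2.42 ± 0.35, or 5.34-fold (limma adjusted p = 0.309), and against day 19 by 1.58 ± 0.35, or 2.99-fold (limma adjusted p = 0.589). The latter was 1.98 without day 19 replicate 2 and 1.18 without replicate 1. The day 12 difference from diestrus was -0.61 ± 0.35 and depended on day 12 replicate 3: without it the difference was -0.10. At day 19 H1f5 differed from diestrus by 0.23 ± 0.35, and by -0.18 without replicate 2. In the F test over the 3 states H1f5 had an unadjusted p of 0.000939 and a limma adjusted p of 0.701; without day 19 replicate 1 its adjusted p was 0.0136, in a setting where 702 of all tested genes were called. Outside the post-partum group every H1f5 value was under the filter, toward the dim end of the arrays, so the size of its fold is uncertain.

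H1f2 (H1.2), a main somatic subtype, did not show this pattern. Its values were 9.55 and 9.29 in diestrus, 9.37 and 9.26 at day 12, 9.43 and 9.33 at day 19 and 8.79 and 9.51 post-partum. Post-partum replicate 2 was the lowest of the 8 arrays and replicate 4 lay within the range of the others, and the mean difference from diestrus was -0.27 ± 0.23. It was 0.08 without post-partum replicate 2.

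H1f10 (H1.10 or H1x), a replication-independent linker histone, read 5.76 and 5.75 in diestrus and 5.88 and 5.85 at day 12. It read 5.94 and 5.42 at day 19 and 6.11 and 5.93 post-partum. Both day 12 arrays and both post-partum arrays were above diestrus, by 0.11 ± 0.18 and 0.27 ± 0.18 on average, and neither passed the test. The low day 19 value came from replicate 2, and without it the day 19 difference was 0.19 in place of -0.073.

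The other 5 linker histones stayed under the filter. H1f1, a replication-dependent subtype, had 3.48 and 3.04 in diestrus, 3.08 and 3.27 at day 12, 2.94 and 3.28 at day 19 and 3.45 and 4.02 post-partum. H1f3, another replication-dependent subtype, had 4.09 and 3.94 in diestrus, 3.95 and 4.05 at day 12, 3.96 and 3.85 at day 19 and 4.25 and 3.95 post-partum. Neither separated post-partum from diestrus. Of the germ-line subtypes, H1f6 (the testis linker histone H1t) had 3.78 and 4.09 in diestrus, 4.23 and 3.62 at day 12, 3.91 and 3.95 at day 19 and 3.48 and 3.80 post-partum. H1f7, of spermatids, had 3.89 and 4.23 in diestrus, 4.02 and 4.01 at day 12, 4.10 and 4.69 at day 19 and 3.61 and 4.18 post-partum. H1f8, of oocytes, had 4.83 and 4.76 in diestrus, 4.89 and 4.21 at day 12, 4.94 and 4.62 at day 19 and 4.77 and 4.49 post-partum. In all 3 of them the post-partum and diestrus arrays overlapped.

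H2A was represented by 3 tested genes that differed in direction. H2ac10 had values of 7.97 and 7.98 in diestrus, 8.04 and 7.88 at day 12, 8.10 and 8.61 at day 19 and 8.19 and 8.84 post-partum. Both day 19 and both post-partum arrays were above diestrus, and the arrays within those 2 states lay far apart. The post-partum difference was 0.54 ± 0.24 (limma adjusted p = 0.722), and it was 0.21 without post-partum replicate 4 and 0.87 without replicate 2. At day 19 the difference was 0.38 ± 0.24, and 0.13 without replicate 2.

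H2ac21 ran the other way on its brighter probe set, with 6.28 and 6.16 in diestrus, 5.93 and 6.07 at day 12, 6.10 and 5.51 at day 19 and 4.99 and 6.06 post-partum. All 6 pregnant and post-partum arrays were below both diestrus arrays. The differences were -0.22 ± 0.33 at day 12, -0.42 ± 0.33 at day 19 and -0.70 ± 0.33 post-partum (limma adjusted p = 0.722). The last was -0.16 without post-partum replicate 2, and the day 19 difference was -0.12 without day 19 replicate 2. A second probe set of H2ac21, with values of 3.28 to 4.10, had both post-partum arrays above both diestrus arrays, so the 2 probe sets disagreed in direction. H2ac1, the testis form of H2A, had 4.79 and 5.70 in diestrus, 5.32 and 5.30 at day 12, 5.08 and 5.36 at day 19 and 5.34 and 5.35 post-partum, so that the diestrus arrays enclosed all the others.

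The other 3 H2A genes were under the filter: H2ac20 ranged from 3.40 to 4.49, H2ac15 from 3.17 to 5.02 and H2ac12 from 1.76 to 2.36. The highest H2ac15 value was on post-partum replicate 4, while replicate 2 read 3.32. In none of the 3 did post-partum separate from diestrus.

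Of the H2B genes, H2bc18 had 5.48 and 5.32 in diestrus, 5.28 and 4.84 at day 12, 5.28 and 5.09 at day 19 and 6.77 and 5.82 post-partum. Both post-partum arrays were above all 6 others, and all 4 pregnant arrays were below both diestrus arrays. The post-partum difference from diestrus of 0.90 had an unadjusted p of 0.0174 and an adjusted p of 0.722 in limma. Its size rested on post-partum replicate 2: it was 0.43 without that array and 1.37 without replicate 4. Against day 12 H2bc18 was higher by 1.24 ± 0.30 (limma adjusted p = 0.550), and against day 19 by 1.11 ± 0.30, or 1.02 without day 19 replicate 2. The differences of day 12 and day 19 from diestrus were -0.34 and -0.21, and -0.12 in each case without day 12 replicate 3 or day 19 replicate 2.

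H2bc3 had values of 6.03 and 5.93 in diestrus, 5.86 and 5.63 at day 12, 6.10 and 6.37 at day 19 and 6.51 and 6.33 post-partum. Day 12 was below diestrus, and both later states were above it, with no overlap. The differences from diestrus were -0.24 ± 0.16 at day 12, 0.26 ± 0.16 at day 19 and 0.44 ± 0.16 post-partum, the last with an unadjusted p of 0.0246 (limma adjusted p = 0.722). Without day 19 replicate 2 the day 19 difference was 0.12, and leaving out arrays moved the post-partum difference between 0.35 and 0.53. From day 12, H2bc3 was 0.49 ± 0.16 higher at day 19 (limma adjusted p = 0.675), or 0.36 without day 19 replicate 2, and 0.68 ± 0.16 higher post-partum (limma adjusted p = 0.548).

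H2bc21 followed another order, with 6.54 and 6.10 in diestrus, 6.58 and 6.70 at day 12, 6.48 and 5.40 at day 19 and 6.43 and 5.77 post-partum. Day 12 was above every other array, by 0.32 ± 0.36 from diestrus. Day 19 was 0.70 ± 0.36 below day 12 (limma adjusted p = 0.675), and 0.16 below without day 19 replicate 2, whose value was the lowest. Leaving out day 19 replicate 1 instead gave a difference of -1.24 with a limma adjusted p of 0.0405, a setting that rests on day 19 replicate 2 alone, takes its spread from the other groups and called 1374 of all tested genes. Over all settings tried, the adjusted p of this difference ran from 0.0405 to 1.00.

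Another 5 H2B genes were under the filter. H2bc12 had 4.21 and 4.31 in diestrus and 4.37 and 4.67 post-partum, H2bc9 had 3.64 and 4.05 against 4.12 and 4.49, and H2bc14 had 3.61 and 3.50 against 4.00 and 3.62. In these 3 both post-partum arrays were above both diestrus arrays, beside 20.3% of all 22180 genes. The values are dim, and in H2bc14 the nearest arrays of the 2 states read 3.62 and 3.61. H2bc22 stayed between 2.81 and 3.08, and H2bc1, the testis form of H2B, between 1.93 and 2.65 with post-partum below diestrus.

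**Figure D2:**
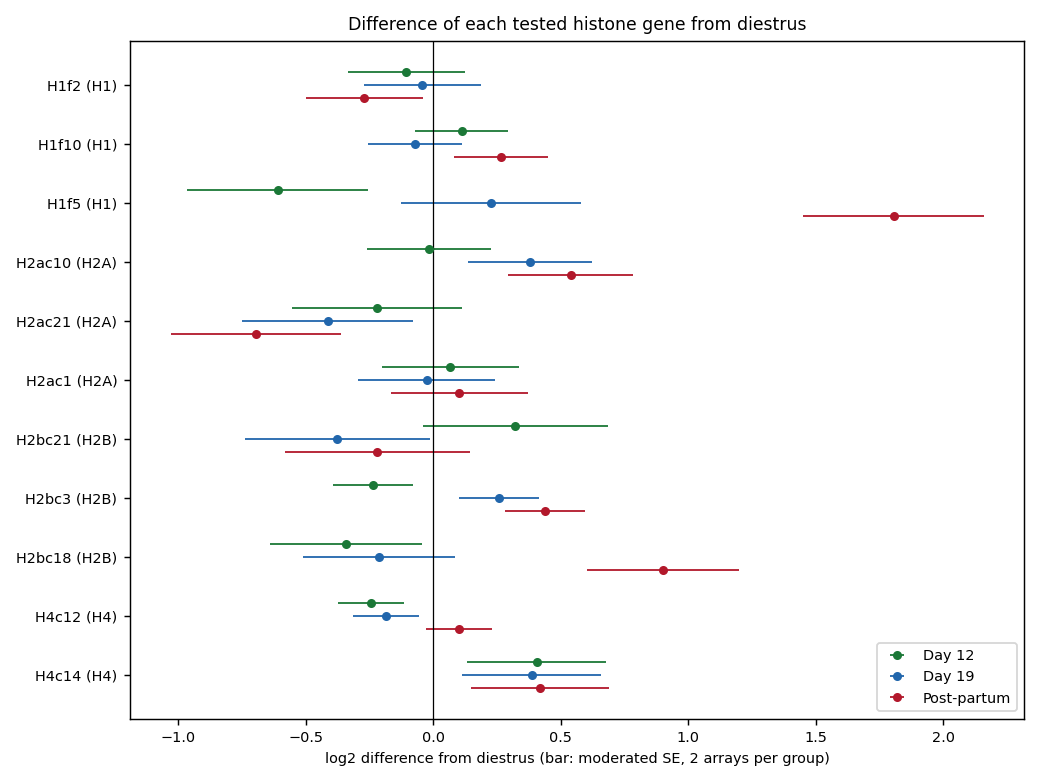
Log2 difference of day 12, day 19 and post-partum from the diestrus mean for the 11 tested histone genes, with horizontal bars of 1 moderated standard error (2 arrays per group). H1f5 (1.80) and H2bc18 (0.90) lie farthest to the right post-partum, and H2ac21 (-0.70) farthest to the left.

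H4 had 2 tested genes. H4c12 had 11.25 and 11.16 in diestrus, 10.95 and 10.97 at day 12, 10.93 and 11.12 at day 19 and 11.30 and 11.32 post-partum. The 4 pregnant arrays were below both diestrus arrays and the post-partum arrays above them, within a narrow range. Its differences from diestrus were -0.25 ± 0.13 at day 12, -0.18 ± 0.13 at day 19 and 0.10 ± 0.13 post-partum, and without day 19 replicate 2 the second was -0.28. From day 12 to post-partum the difference was 0.35 ± 0.13, or 1.27-fold (limma adjusted p = 0.615), and between 0.33 and 0.36 with single arrays left out.

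H4c14 read 4.59 and 5.13 in diestrus, 5.12 and 5.42 at day 12, 5.28 and 5.22 at day 19 and 5.65 and 4.91 post-partum. Only day 19 separated from diestrus, by 0.39 ± 0.27 (limma adjusted p = 0.701), and by 0.42 without day 19 replicate 2. H4c9, just under the filter, had 4.87 and 4.95 in diestrus and 5.13 and 5.04 post-partum, with 5.05 and 5.21 at day 12 and 4.87 and 4.66 at day 19. The remaining H4 genes H4c1, H4c17, H4c8 and H4c2 ranged from 2.19 to 4.27. H4c1 was above diestrus on both post-partum arrays, H4c8 was below on both, and H4c17 and H4c2 overlapped.

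Counted over all 29 members without a filter, both post-partum arrays were above both diestrus arrays for 11 genes (37.9%), beside 20.3% of all 22180 genes, and below for 3 (10.3%), beside 19.1%. Against day 12, post-partum was above for 12 (41.4%), beside 20.7% of all genes, and below for 3 (10.3%), beside 21.6%. Against day 19 it was above for 9 (31.0%), beside 17.1%, and below for 1, beside 15.0%. Day 12 was above diestrus for 4 (13.8%), beside 19.5%, and below for 9 (31.0%), beside 16.5%. Day 19 was above diestrus for 4, beside 17.8%, and below for 8 (27.6%), beside 18.0%. Day 19 was above day 12 for 8, beside 18.2%, and below for 6, beside 19.2%. Without day 19 replicate 2, where 1 array stands for day 19 and more genes separate, day 19 was above diestrus for 7, beside 33.4% of all genes, and below for 13 (44.8%), beside 32.0%. It was above day 12 for 13, beside 33.0%, and below for 10 (34.5%), beside 34.3%. Post-partum was then above day 19 for 15 (51.7%), beside 33.6%, and below for 6, beside 32.6%. The comparisons share arrays, so their counts are not separate pieces of evidence, and no test was made of the difference of these shares from all genes.

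**Figure D3:**
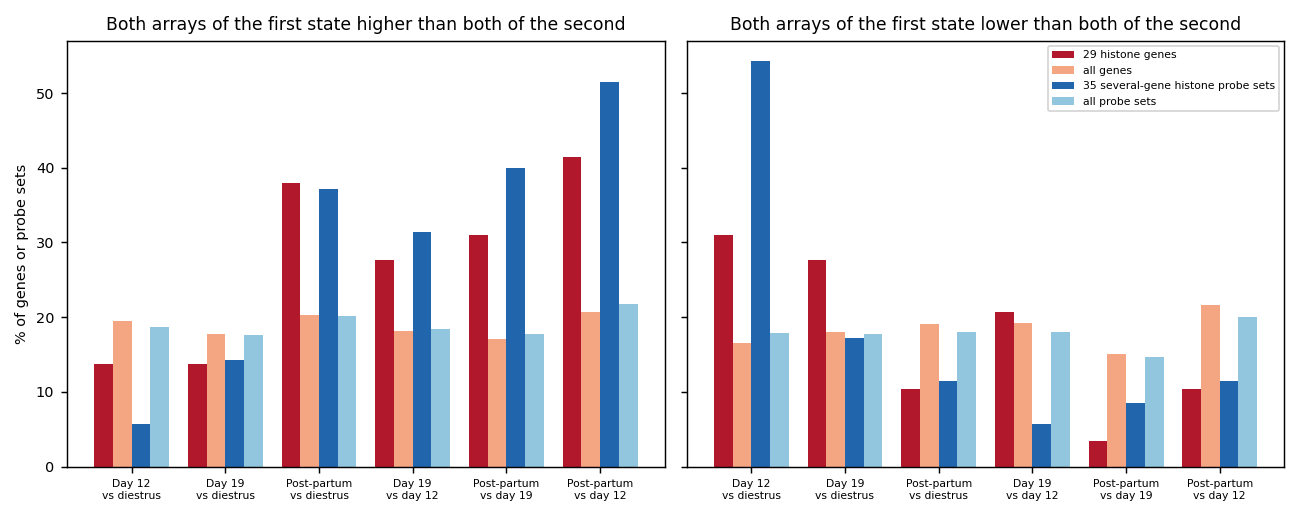
Percentage of the 29 histone genes, of all 22180 genes, of the 35 histone probe sets annotated to several genes and of all 34365 probe sets for which both arrays of the first state were higher (left) or lower (right) than both arrays of the second, without a filter. Post-partum above diestrus held for 37.9% of the histone genes and 20.3% of all genes.

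Over the 11 tested members, the median log2 difference from diestrus was -0.11 at day 12, -0.043 at day 19 and 0.27 post-partum, beside 0.017, -0.029 and -0.0037 over all tested genes. For the 8 that reached the filter in all 4 groups the post-partum median was 0.10, with 5 above 0 and 3 below, so the larger value depended on the genes kept through some groups. Among these 8, both post-partum arrays were above both diestrus arrays for 4 and below for 1, beside 21.1% and 21.7% of all tested genes. The median at day 19 was 0.0096 without day 19 replicate 2. From day 12 to day 19 the median over the 11 was 0.062, from day 19 to post-partum 0.16 and from day 12 to post-partum 0.15, beside -0.042, 0.013 and -0.027 over all genes. Without day 19 replicate 2 the first was 0.097 and the second 0.27.

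Most copies of the core histones could be read only together. On the arrays 38 probe sets were annotated to several genes with at least 1 histone of these families, 35 of them with distinct values, and they carried 52 histone genes, 37 of which had no probe set of their own. Because the sets name overlapping genes, they are not independent of each other and no gene is named from them. Of the 35, 15 reached the filter: 4 of H2A, 6 of H2B, 3 of H3, 1 of H4 and 1 shared by H1 and H2B genes. A fit over all 18431 probe sets that reached it called 0 of the 15 post-partum against diestrus, beside 0.0% of all, and 5 had an unadjusted p under 0.05, beside 6.49%.

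The brightest differences were in H2B. Probe set 17290997, annotated to 4 H2B genes, had 10.98 and 11.08 in diestrus, 10.87 and 10.82 at day 12, 11.03 and 11.50 at day 19 and 11.80 and 11.84 post-partum. Both post-partum arrays were above all the others, by 0.79 ± 0.17 or 1.73-fold from diestrus, with an unadjusted p of 0.00222 and a limma adjusted p of 0.734. Probe set 17285691, annotated to 12 H2B genes, had 9.78 and 9.88 in diestrus, 9.88 and 9.52 at day 12, 9.81 and 10.60 at day 19 and 10.62 and 10.74 post-partum, and was 0.85 ± 0.26 higher post-partum. On this set day 19 replicate 2 read almost as high as the post-partum arrays, while day 19 replicate 1 read like diestrus. Probe set 17291190, also annotated to 4 H2B genes, had 6.05 and 6.21 in diestrus, 5.50 and 5.58 at day 12, 5.67 and 6.64 at day 19 and 6.79 and 6.85 post-partum. Its day 19 arrays lay on either side of diestrus. In 5 of the 6 H2B sets both post-partum arrays were above both diestrus arrays, and in 0 below, against 21.4% and 20.3% of all probe sets that reached the filter. Of these 5, probe set 17285710 reached the filter only in the post-partum group, with means of 5.42 there and 4.99 in diestrus. It was thus kept through its high post-partum values, and the count is no measure of all H2B sets.

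H3 was seen only through such sets. Probe set 17400555, annotated to 8 H3 genes, had 7.70 and 7.62 in diestrus, 7.59 and 7.52 at day 12, 7.50 and 7.95 at day 19 and 8.27 and 8.38 post-partum. Post-partum was above all other arrays, by 0.67 ± 0.17 or 1.59-fold from diestrus (unadjusted p of 0.00533, limma adjusted p of 0.734). The other 2 H3 sets overlapped between post-partum and diestrus, with differences of 0.29 ± 0.26 and -0.24 ± 0.32. At day 12 all 3 H3 sets were below diestrus on both arrays, by 0.10, 0.19 and 0.20 on average in size. Of all probe sets that reached the filter, 17.0% were below in this way. Among the 3, 2 are annotated to the same 8 genes, and 0 had an unadjusted limma p under 0.05 at day 12.

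For H2A, probe set 17291012, annotated to 10 genes, had 8.72 and 9.06 in diestrus, 8.38 and 8.40 at day 12, 8.54 and 9.40 at day 19 and 9.43 and 9.65 post-partum, with a post-partum difference of 0.65 ± 0.27. Probe set 17285703, annotated to 12 H2A genes, was 0.54 ± 0.25 higher post-partum with no overlap, and the other 2 H2A sets overlapped. The H4 set that reached the filter, annotated to 13 genes, was not steady within states: 6.31 and 4.85 in diestrus, 5.48 and 7.69 at day 12, 8.14 and 5.35 at day 19 and 4.86 and 5.41 post-partum. Its standard error was 1.01 log2 units, so no difference could be read from it.

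**Figure D4:**
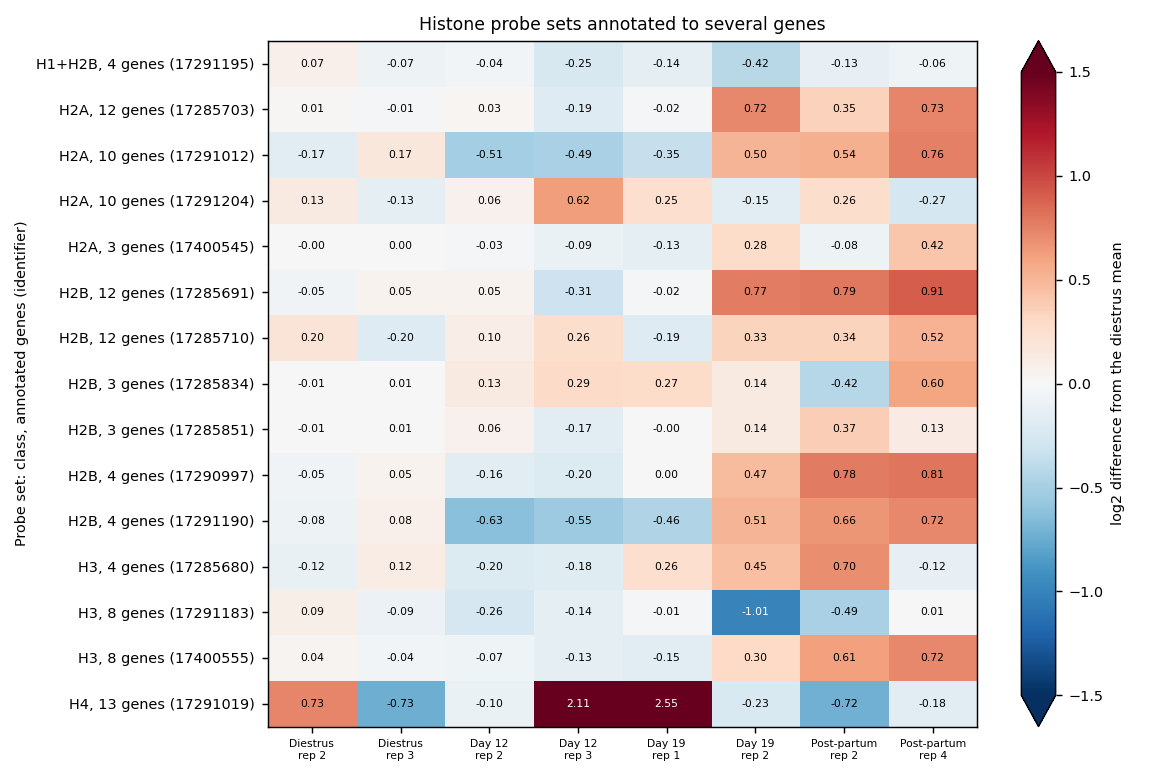
Log2 difference from the diestrus mean on each array for the 15 distinct histone probe sets annotated to several genes that reached the filter; red is higher and blue is lower, and the colour scale ends at 1.5 in size. The 2 post-partum columns are both red in 5 of 6 H2B rows, 2 of 4 H2A rows and 1 of 3 H3 rows. The column of day 19 replicate 2 resembles the post-partum columns more than that of day 19 replicate 1 does.

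Over all 35 distinct sets without a filter, day 12 was below diestrus for 19 (54.3%), beside 17.9% of all 34365 probe sets, and above for 2 (5.7%), beside 18.7%. Post-partum was above diestrus for 13 (37.1%), beside 20.1%, and below for 4 (11.4%), beside 18.0%. Against day 12, post-partum was above for 18 (51.4%), beside 21.8%, and below for 4, beside 20.0%. Against day 19 it was above for 14 (40.0%), beside 17.8%, and below for 3, beside 14.7%. Day 19 was above diestrus for 5 and below for 6, beside 17.6% and 17.7%, and above day 12 for 11 and below for 2, beside 18.4% and 18.0%. Without day 19 replicate 2, day 19 was above diestrus for 9 and below for 13, beside 31.3% and 33.9%, and above day 12 for 17 and below for 7, beside 32.0% and 35.0%. Post-partum was then above day 19 for 21, beside 35.6%, and below for 5, beside 30.0%. Sets of overlapping genes share signal, so these counts describe the sets and not as many separate genes.

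Genes of DNA replication, mitosis and histone handling were read in the same samples. Of 22 tested genes of DNA replication and S phase, limma called 0 in any comparison, 15 were higher post-partum at an unadjusted p under 0.05, beside 3.38% of all tested genes, and both post-partum arrays were above both diestrus arrays for 17, beside 21.1% of all genes. Their median post-partum difference was 0.49. In this list Cdc6 reached the filter only in the post-partum group, and Prim1 only at day 19 and post-partum. Both were kept partly through groups in which they were high, so these counts describe the tested genes only. E2f1, a transcription factor of S phase entry, had 5.68 and 5.91 in diestrus and 6.46 and 6.57 post-partum. Mcm5, a subunit of the replicative helicase, had 6.18 and 6.45 in diestrus and 6.97 and 7.35 post-partum, while Pcna, the sliding clamp of replication, had 8.83 and 9.47 against 9.45 and 9.47 and overlapped.

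Of 17 tested mitosis genes, 14 were above diestrus on both post-partum arrays and 1 below, beside 21.1% and 21.7% of all tested genes, with a median of 0.55. Limma called 0 of them at an adjusted p under 0.05. At an unadjusted p under 0.05, 8 were higher and 1 lower, beside 3.38% and 3.24% of all tested genes. Ccna2 (cyclin A) had 5.88 and 6.15 in diestrus and 7.23 and 7.23 post-partum. Mki67, a marker of cycling cells, had 6.51 and 6.61 in diestrus, 6.95 and 6.26 at day 12, 6.67 and 7.49 at day 19 and 7.38 and 7.84 post-partum. Top2a, which untangles DNA in mitosis, had 4.96 and 5.39 in diestrus, 5.73 and 6.45 at day 19 and 6.04 and 6.66 post-partum. The diestrus mean of Top2a was just under the filter. The part of the replication and mitosis genes in the histone values was not tested. Macrophage markers averaged 0.029 and 0.40 above diestrus on the 2 post-partum arrays.

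Genes that process histone mRNA and chaperones that carry histone proteins were read as well. Of 19 tested genes of histone mRNA 3′ end processing and decay, 5 were higher post-partum and 14 lower, with a median of -0.096. Limma called 0 of them, and 0 had an unadjusted p under 0.05, beside 6.62% of all tested genes. The list averaged -0.16 on post-partum replicate 2 and 0.011 on replicate 4, so the lower values came mainly from 1 array. Slbp, which binds the stem-loop of histone mRNAs, had 7.19 and 7.00 in diestrus and 6.78 and 7.14 post-partum. Npat, the activator of histone gene transcription at S phase entry, had 7.28 and 7.25 against 7.12 and 7.36, and its lowest value, 6.60, was on day 19 replicate 2. Of 19 histone chaperones and importers 9 were higher and 10 lower post-partum. Limma called 0 of these 19 at an adjusted p under 0.05. At an unadjusted limma p under 0.05, 2 were higher and 2 lower, beside 3.38% and 3.24% of all tested genes. Chaf1a, a subunit of the replication-coupled chaperone CAF-1, had 4.86 and 4.57 in diestrus and 5.59 and 5.18 post-partum, whereas Atrx, a remodeller that deposits H3.3 with Daxx, had 7.96 and 7.94 against 7.46 and 7.54. Chaf1a reached the filter only in the post-partum group, so it was kept through its high values there. Neither gene passed the adjusted test.

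Among 6 tested core histone variants, 4 were higher and 2 lower post-partum than in diestrus, with a median difference of 0.25. Limma called 0 of the 6, and 1 was higher at an unadjusted p under 0.05, beside 3.38% of all tested genes. H2ax, the variant phosphorylated at DNA breaks, had 6.91 and 6.89 in diestrus and 7.34 and 7.46 post-partum, a difference of 0.50 ± 0.20 (limma adjusted p = 0.722). H2az2, a variant of promoter nucleosomes, had 9.97 and 10.03 in diestrus and 8.94 and 9.86 post-partum, which was lower by 0.60 on average and by 0.14 without post-partum replicate 2.

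**Figure D5:**
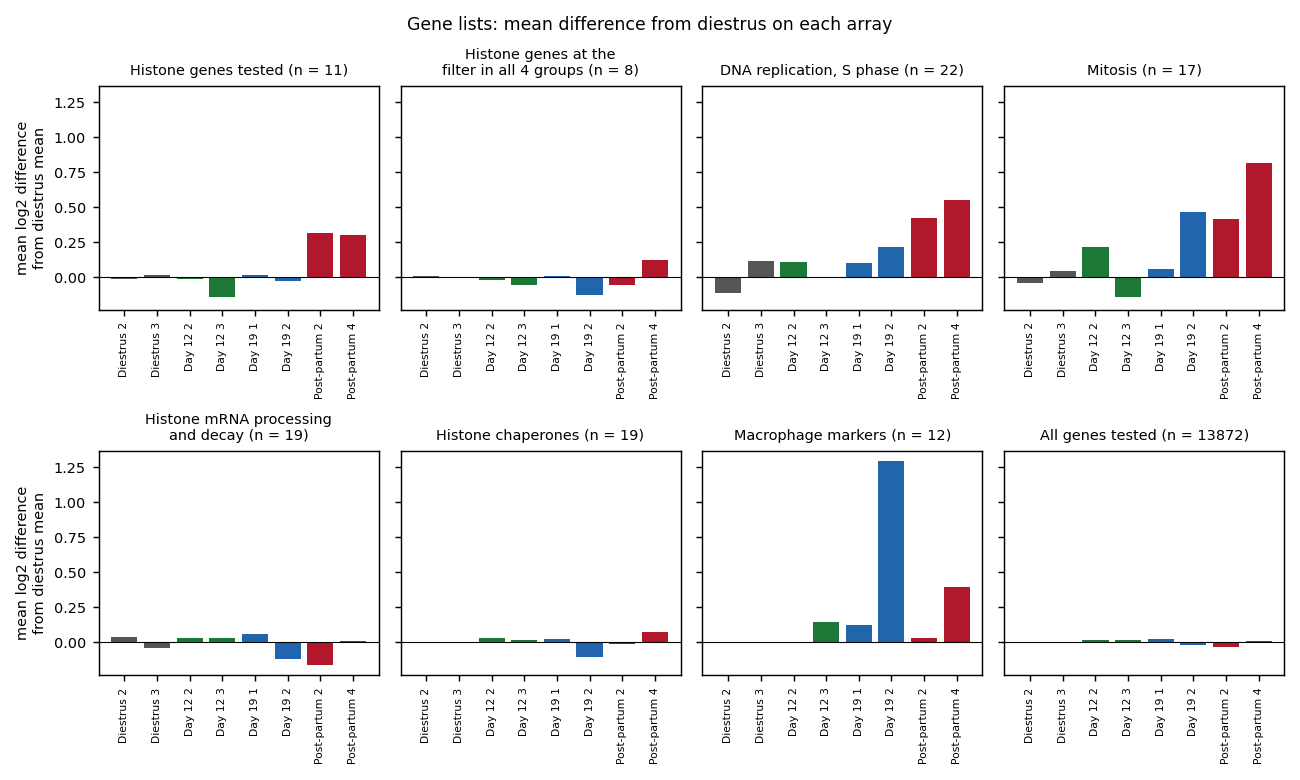
Mean log2 difference from the diestrus mean on each array for the histone genes and for lists of other genes, with the number of tested genes in each panel title; bars are single arrays, coloured by state. The 11 tested histone genes averaged 0.32 and 0.30 on the post-partum arrays, the 8 at the filter in all groups -0.057 and 0.12, and the S phase list 0.42 and 0.55.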

How the data were processed

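The authors deposited 1 table of log2 expression values per probe set for 8 arrays, which the submitters' processing notes say came from RMA (Affymetrix Expression Console). Versions, settings and the array library file: not given in the sources used here. RMA equalises arrays, so a shift shared by most genes is removed. Values ran from 1.37 to 13.32 over 34365 probe sets, with array medians of 5.14 to 5.28. Platform annotation named 23521 probe sets with 1 symbol, 1814 with several and left 9030 unnamed here; 23328 matched the RefSeq gene table of GRCm38.p6 with 0 symbols changed. Where a gene had more than 1, the probe set of highest mean stood for it.

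Groups came from titles. A model with 1 mean per state was fitted to all 8 arrays and 13872 genes with limma 3.58.1 in R 4.3.3 (4 residual and 3.68 prior degrees of freedom, median standard error 0.17), two-sided, with Benjamini-Hochberg adjustment over all tested genes and a threshold of 0.05. The scripts were tested on simulated data. The number of arrays limits the precision.

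Values on each array were given for the members past the threshold, the 5 largest differences each way from diestrus, every linker histone, and the 3 brightest members of each core class; of the other lists, the values compared were given, for genes among the 4 with the smallest F test p and for Slbp, Npat, Pcna, Mki67 and Top2a. Members and lists were chosen with earlier results of these data known. The comparison of post-partum with day 12, the fit of all probe sets, the count over members at the filter in all groups and the counts without day 19 replicate 2 were added after seeing the data. Alternatives were no filter, a filter on the mean, a stricter filter, median centring, the mean of a gene's probe sets, array weights, trended and robust variance, only the groups compared, the replicate number as a block, and each array left out.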

Additional observations from a re-analysis of the deposited data

How the results depend on the processing

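No member was called by limma at an adjusted p under 0.05 except without day 19 replicate 1, where H2bc21 was called for day 19 against day 12 and H1f5 in the F test. The median post-partum difference from diestrus over the tested members, 0.27, was 0.10 with no filter, with a filter on the mean of all arrays and over members with all 4 group means at the filter, and 0.18 with the stricter filter. That of day 19 against day 12, 0.062, was 0.0016 with median centring, -0.019 with only the groups compared and -0.015 over members at the filter in all groups, so its sign changed. That of post-partum against day 12, 0.15, was 0.25 with the stricter filter and with the mean of probe sets, and 0.095 over members at the filter in all groups. The cause was not tested, other than that filters change which members are tested.

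Leaving out each array in turn, which leaves a state with 1 array assumed to vary like the others, gave medians of -0.23 to -0.051 for day 12 against diestrus, -0.090 to 0.0096 for day 19 against diestrus (-0.043 with all arrays, above 0 only without day 19 replicate 2), 0.11 to 0.39 for post-partum against diestrus, -0.015 to 0.097 for day 19 against day 12, 0.066 to 0.27 for post-partum against day 19 and 0.11 to 0.25 for post-partum against day 12. It gave 0 to 1 members called for day 19 against day 12 and 0 to 1 in the F test, the 1 in both being without day 19 replicate 1, which also raised the calls over all genes to 1374 and 702 from 0.

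Only diestrus and day 12 share 2 replicate numbers, and over tested genes the difference of replicate 2 from 3 in those states correlated at 0.22. No label says what a number marks, and 2 shared numbers are too few to decide a pairing, so samples were not taken as pairs. With the replicate number as a block, 0 members were called, the median stayed -0.11, and 18 of all genes were called where 0 were without it. Dim values limit the 18 members under the filter and H1f5 before birth, and 2 arrays per state limit every comparison.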
